A study of Mus musculus with 6 samples.

Results

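The transcripts that carry glucose into lactate were followed across 6 cultures of primary mammary fibroblasts. The set held 10 genes taken by symbol from the deposited count table: the glucose transporter Slc2a1, the enzymes Hk2, Gpi1, Aldoa, Tpi1, Gapdh, Pgk1, Pgam1 and Pkm, and Ldha. All 10 were among the 12023 genes of the table and among the 8752 that passed the count filter. Cells came from the mammary fat pad of healthy BALB/c or C57BL/6 females of 8 to 12 weeks, with 3 biological replicates of each inbred strain. They were grown on collagen for 4 days before RNA was taken, and both strains were handled alike as far as the labels say. The design text names the purpose as the baseline expression of normal fibroblasts of the strains. It also mentions that cells were separated magnetically, without the marker used, and no batch is named. The assay counted reads at the 3′ ends of polyadenylated RNA.

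Glycolysis is the cytosolic route that turns glucose into pyruvate with a small gain of ATP. Fibroblasts in culture use it heavily, and much of their pyruvate leaves the cell as lactate. Slc2a1 brings glucose in, Hk2 traps it as glucose phosphate, Gpi1 and Aldoa prepare and split the sugar, and Tpi1 interconverts the products. Gapdh, Pgk1, Pgam1 and Pkm then carry the carbon to pyruvate, and Ldha reduces pyruvate to lactate. Several of these genes are textbook targets of the hypoxia-inducible factor HIF-1, and Gapdh is widely used as a reference gene because it is taken to be steady.

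Total counts ran from 1035485 to 2713611 in BALB/c and from 1295349 to 4665896 in C57BL/6. Values below are CPM, the counts scaled to library size with edgeR's TMM factors, and 3 counts correspond to between 0.606 and 2.88 CPM. C57BL/6 replicate 1 stood apart from the other libraries: its log2 CPM had a mean correlation across genes of 0.779 with the other 5, against 0.87 to 0.91 for each of those. Its deviations from the gene means followed GC content (Pearson r = 0.64 across 8724 genes), where the other libraries had r of -0.41 to -0.17. The deviations of a gene balance over the 6 libraries, so a positive r in 1 library brings negative r in others. Genes are not independent replicates, so these values are descriptions. Fibroblast markers, with 11 of 12 in the table, summed to 13551, 7303 and 11622 CPM in BALB/c replicates 1, 2 and 3, and to 3184, 14469 and 8123 CPM in C57BL/6 replicates 1, 2 and 3. Markers of mammary epithelium, with 12 of 12 in the table, summed to 1930, 11323 and 8905 CPM in BALB/c and to 18038, 3205 and 10127 CPM in C57BL/6. Epithelial markers were thus counted in every library, with the highest sum in C57BL/6 replicate 1. In bulk RNA fewer cells of a type and less RNA per cell cannot be told apart.

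None of the 10 genes differed between the strains at an adjusted p under 0.05 in edgeR's quasi-likelihood test. This test called 18 of 8752 genes, or 0.206%, and 0 of 10 does not depart from that share. That count was 4 without BALB/c replicate 1, 5 without C57BL/6 replicate 2, 25 without C57BL/6 replicate 1, and 0 without each of the other 3. No glycolytic gene had an unadjusted p under 0.05 either, and DESeq2 called 0 of the 9 for which it gave an adjusted p, Gapdh having none there. Their adjusted p lay between 0.954 and 0.985 in edgeR. The estimated log2 difference, BALB/c minus C57BL/6, was negative for 8 genes and positive for 2, with a median of -0.26. Over all tested genes the median was 0.01 and 48.9% were negative. In 4 of the 10 genes, Gpi1, Aldoa, Tpi1 and Ldha, every BALB/c library lay below every C57BL/6 library. Over all tested genes 6.26% had this pattern. The opposite pattern, found in 5.15% of all tested genes, occurred in 0 of the 10. The same 4 genes showed the first pattern with CPM by library totals alone (5.14% of all genes) and without C57BL/6 replicate 1 (9.75%), both tried after seeing the data.

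**Figure D1:**
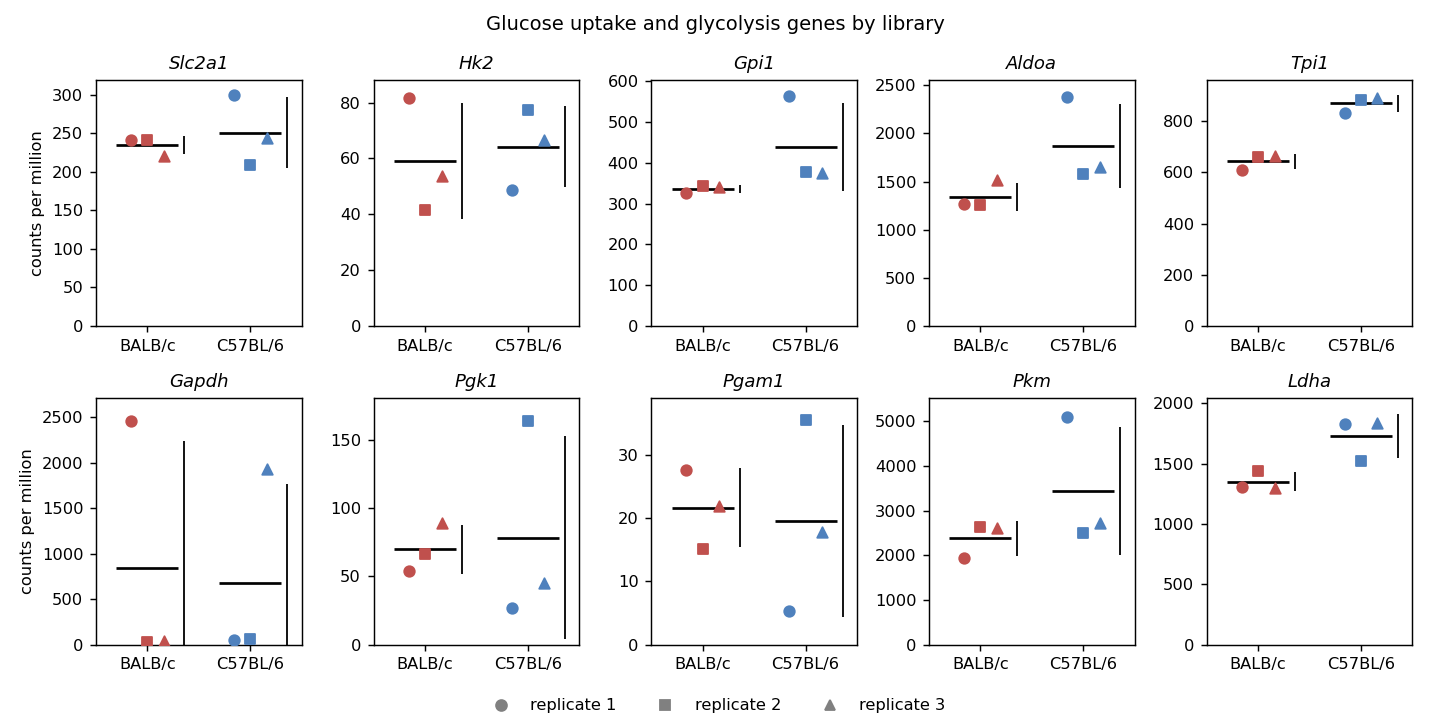
CPM of each of the 10 genes in BALB/c (left, red) and C57BL/6 (right, blue) libraries, 1 point per library with its replicate number by shape; horizontal lines are means and vertical lines 1 SD on either side (n = 3 each), with the lower end drawn only down to 0. Tpi1 separates the strains with little spread, while Gapdh is below 60 in 4 libraries and at 2456 and 1934 in 1 library of each strain.

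Slc2a1, the widespread glucose transporter GLUT1, did not pass the test. It lay at chr4:119108711-119137983 on the plus strand (GRCm38, the same assembly as mm10). It had 242, 241 and 221 CPM in BALB/c replicates 1, 2 and 3, against 299.7, 209 and 244 CPM in C57BL/6 replicates 1, 2 and 3. The BALB/c libraries lay close together and inside the C57BL/6 range. The means were 235 ± 11.6 CPM in BALB/c, against 251 ± 45.8 CPM in C57BL/6 libraries (SD, n = 3 each), with a log2 difference of -0.09 ± 0.23 (SE) and a 95% confidence interval of -0.63 to 0.44 (edgeR adjusted p = 0.96). Of the 10 genes it had one of the narrowest spreads over all 6 libraries, with a highest library 1.44 times the lowest.

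Hk2, the hexokinase typical of muscle, fat and growing cells, phosphorylates the incoming glucose (chr6:82725025-82774454, minus strand). It had 81.8, 41.4 and 53.7 CPM in BALB/c, against 48.6, 77.3 and 66.6 CPM in C57BL/6. Its libraries were mixed between the strains, with both the highest and the lowest value in BALB/c. The log2 difference was -0.12 ± 0.34, and its sign turned when BALB/c replicate 2 (0.08) or C57BL/6 replicate 2 (0.03) was left out. BALB/c replicate 1 and C57BL/6 replicate 2, the highest libraries for Hk2, were also those with the lowest sums of epithelial markers, and the part of cell makeup in this was not tested.

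Gpi1 and Aldoa, which prepare and split the sugar, did not pass the test, though both were among the 4 genes without overlap, a pattern of 6.26% of all tested genes. Gpi1 converts glucose phosphate to fructose phosphate (chr7:34201330-34230336, minus strand) and had 325, 343 and 341 CPM in BALB/c, against 563, 377 and 374 CPM in C57BL/6. The BALB/c values were nearly equal, and C57BL/6 replicate 1 lay far above the other C57BL/6 libraries. The log2 difference was -0.38 ± 0.25 (edgeR adjusted p = 0.954), and -0.17 without C57BL/6 replicate 1.

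Aldoa, the aldolase of muscle and most growing cells, cleaves fructose bisphosphate into triose phosphates. Its main entry lay at chr7:126795234-126800751 on the minus strand, and the annotation holds a second entry under the same symbol at chr7:126800790-126809108, which the table does not separate. Aldoa had 1263, 1256 and 1512 CPM in BALB/c, against 2377, 1579 and 1652 CPM in C57BL/6. The strains did not overlap, but the highest BALB/c library and the lowest C57BL/6 library were close together, and C57BL/6 replicate 1 was again the highest. The means were 1344 ± 145 CPM in BALB/c, against 1869 ± 441 CPM in C57BL/6. Their log2 difference was -0.47 ± 0.25 (edgeR adjusted p = 0.954), and -0.27 without C57BL/6 replicate 1.

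Tpi1 separated the strains with little spread within either. It encodes triose phosphate isomerase, at chr6:124810586-124814296 on the minus strand. It had 610.2, 658 and 662 CPM in BALB/c replicates 1, 2 and 3, against 832, 884 and 891 CPM in C57BL/6 replicates 1, 2 and 3. The coefficient of variation was 4.49% in BALB/c and 3.69% in C57BL/6, and C57BL/6 replicate 1 was in place with its group. The means were 643 ± 28.9 CPM in BALB/c, against 869 ± 32 CPM in C57BL/6 libraries (SD, n = 3 each), or 0.741 times the C57BL/6 level. This gave a log2 difference of -0.43 ± 0.20, with a 95% interval of -0.90 to 0.04, an unadjusted p of 0.0671 and an edgeR adjusted p of 0.954. The lowest adjusted p over 16 alternative settings was 0.187. Its log2 difference stayed between -0.47 and -0.36 in all 16, the narrowest range of the 10 genes. With 3 libraries against 3, an exact two-sided permutation test of a single gene cannot go below 0.1.

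**Figure D2:**
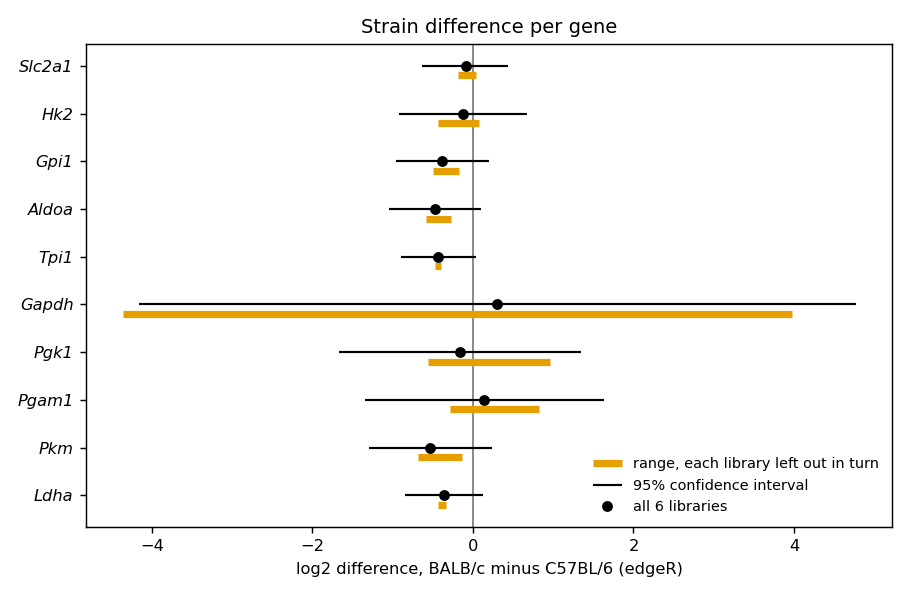
Log2 difference of each gene, BALB/c minus C57BL/6, from edgeR with all 6 libraries (point) and its 95% confidence interval (black line); the orange bar is the range of the same estimate when each library is left out in turn. Gpi1, Aldoa, Tpi1, Pkm and Ldha keep their orange bars left of 0, while the bar of Gapdh runs from -4.36 to 3.98.

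Gapdh, which oxidises glyceraldehyde phosphate and yields NADH, was counted at very different levels within each strain (chr6:125161715-125166467, minus strand). It was counted 3723, 67 and 45 times in BALB/c replicates 1, 2 and 3, against 60, 76 and 9577 times in C57BL/6 replicates 1, 2 and 3. Scaled to depth these were 2456, 23.7 and 43.1 CPM in BALB/c, against 45.5, 58.8 and 1934 CPM in C57BL/6. One library of each strain was thus high and the other 4 were low, with 103-fold between the highest and the lowest library. The coefficient of variation was 166% in BALB/c and 159.9% in C57BL/6. The log2 difference of 0.30 ± 1.90 had an interval of -4.16 to 4.77, so that large differences in either direction lay within it.

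The high libraries shared neither strain nor replicate number. BALB/c replicate 1 was poor and C57BL/6 replicate 3 rich in epithelial markers, and their depths were 1458182 and 4665896 counts. Per 100 counts of Aldoa, which acts just upstream, Gapdh had 194, 1.89 and 2.85 counts in BALB/c and 1.92, 3.72 and 117 counts in C57BL/6. Over the same libraries Aldoa, Tpi1, Pkm and Ldha stayed within 2.64-fold, while Pgk1 and Pgam1, which act just after Gapdh, varied 6.17-fold and 6.7-fold. Pgk1 and Pgam1 did not follow Gapdh closely, with Pearson r of log2 CPM of -0.26 and 0.30. The counting error is far smaller than the gap: the 95% exact interval of the C57BL/6 replicate 2 value was 46.3 to 73.5 CPM, and that of C57BL/6 replicate 3 was 1895 to 1973 CPM.

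Few genes of the table broke apart in this way. When the 6 libraries of a gene are ordered by log2 CPM, Gapdh had a gap of 5.02 between its low and its high libraries, a 32.4-fold step on that scale, which adds a prior count of 2. Among 8752 genes it ranked at 5 by the largest gap, and the 4 genes ahead of it, Mcm4, Ran, Rab9 and Hdac2, had a single low library, C57BL/6 replicate 1 in each. Counting only gaps with at least 2 libraries on each side, Gapdh ranked at 1 of all tested genes. The next gene was Rpl29, a ribosomal protein gene, with 4.68, and the median over all tested genes was 0.31. The largest gaps of the other 9 genes of the set, wherever they fell in the order, were between 0.26 and 1.38.

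**Figure D3:**
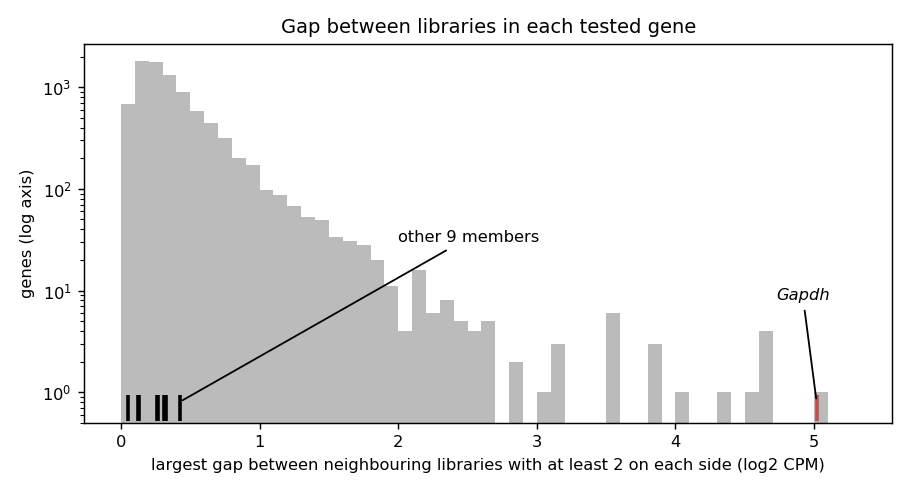
Histogram over 8752 tested genes (log count axis) of the largest step in log2 CPM between neighbouring libraries with at least 2 libraries on each side. Gapdh stands at the far right with 5.02, and the black ticks of the other 9 genes of the set lie below 0.5.

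Gapdh is also the gene of the set with the most copies in the genome. Against the annotated mouse transcripts, 76 other genes matched it at 95% identity or more over 60 nt or more, and 71 of these were annotated as processed pseudogenes. In 69 the match ran over at least 500 nt, and in 74 it reached into the last 500 nt, where 3′ reads fall. Only 2 of the 76 were among the genes of the table: Gm5069 was counted 3, 7 and 8 times in BALB/c replicates 1, 2 and 3, against 7, 11 and 12 times in C57BL/6 replicates 1, 2 and 3, and Gm12070 was counted 8, 8 and 11 times in BALB/c and 9, 13 and 19 times in C57BL/6. Together they reached at most 31 counts in a library. Adding them to Gapdh gave a log2 difference of 0.29, against 0.30 without them.

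The likeness of the copies can be read from a stretch near the end of the coding sequence, bases 913 to 972 of Gapdh, shown beside the same stretch of 3 copies. Gm5069 and Gm12070 are those counted in the table, and Gm10358 on chromosome 8, with a match of 1249 nt at 99.119% identity, is the longest copy. The capital marks the single base that differs from Gapdh, C36T in Gm5069, counted from 1 at the 5′ end of the stretch. All are read from GENCODE vM21 transcripts on GRCm38.
Gapdh: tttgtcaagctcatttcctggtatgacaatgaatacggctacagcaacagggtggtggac
Gm5069: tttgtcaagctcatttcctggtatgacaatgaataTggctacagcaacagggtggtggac
Gm12070: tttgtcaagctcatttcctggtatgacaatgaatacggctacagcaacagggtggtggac
Gm10358: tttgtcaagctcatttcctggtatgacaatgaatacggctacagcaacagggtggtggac

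Of the 76 copies, 36 were identical to Gapdh over these 60 bases, 32 had 1 to 3 differences and 8 had more. A read that lies within an identical stretch cannot be assigned to 1 locus by its sequence. Cut into words of 50 nt, the last 500 nt of Gapdh gave 451 words, and 408 of them, or 90.5%, also occurred in another annotated gene. Of 8724 tested genes with a searched 3′ end, 10.4% had at least 1 shared word, and 217, or 2.49%, had at least 50% of their words shared. Among the other glycolytic genes the share was 7.32% for Pgk1, 4.21% for Gpi1 and 3.33% for Aldoa, and 0 for the other 6. The sources used here give neither the read length nor the counting of reads with several matches. The part of the copies in the low counts of Gapdh was not tested, and the strain difference of Gapdh cannot be read from these counts.

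**Figure D4:**
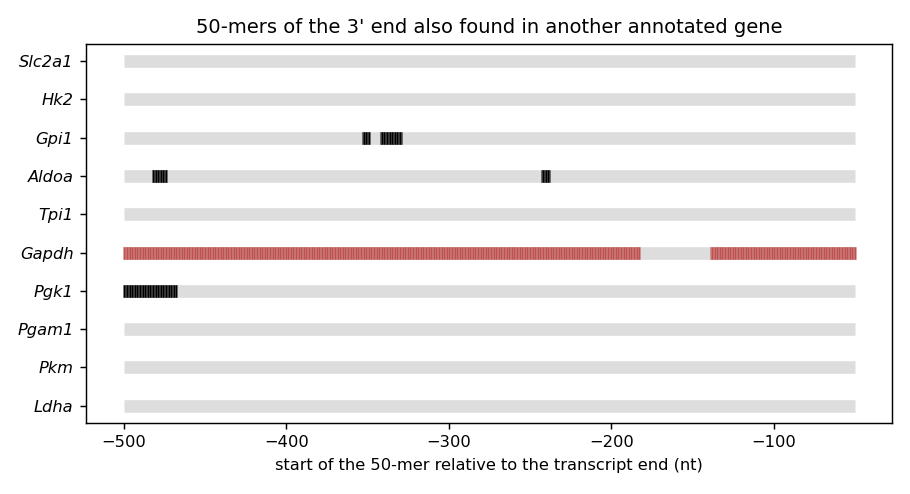
Starts of 50 nt words in the last 500 nt of 1 transcript per gene (x axis, nt from the transcript end) that also occur in another annotated gene; grey bars are the words searched, coloured marks the shared ones. Gapdh is covered except for a short stretch, 408 of 451 words, while Slc2a1, Hk2, Tpi1, Pgam1, Pkm and Ldha have none.

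The next steps, catalysed by Pgk1 and Pgam1, varied widely among the C57BL/6 libraries. Pgk1, the enzyme that makes the first ATP of the lower part of the pathway, is X-linked (chrX:106187100-106203699, plus strand). It had 54.1, 66.2 and 89.1 CPM in BALB/c, against 26.6, 164 and 44.8 CPM in C57BL/6. The highest and the lowest library were both C57BL/6, with 6.17-fold between them. The log2 difference was -0.16 ± 0.64, and it became 0.96 without C57BL/6 replicate 2 and -0.56 without C57BL/6 replicate 1. Of its 4 copies the longest match, 1255 nt with no mismatch, reached only the start of the last 500 nt, and none of the 4 was among the genes of the table.

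Pgam1, which moves the phosphate group within phosphoglycerate, lay at chr19:41911923-41918660 on the plus strand. It was counted 42, 43 and 23 times in BALB/c and 7, 46 and 88 times in C57BL/6, or 27.7, 15.2 and 22 CPM against 5.31, 35.6 and 17.8 CPM. C57BL/6 again held both ends of the range, 6.7-fold apart. The log2 difference of 0.14 ± 0.63 became -0.28 without C57BL/6 replicate 1 and -0.08 without BALB/c replicate 1. The order of the 6 libraries by Pgam1 was the same as their order by the summed fibroblast markers, with C57BL/6 replicate 2 and BALB/c replicate 1 at the top and C57BL/6 replicate 1 at the bottom. The part of cell makeup and of library quality in this order was not tested.

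Pkm makes pyruvate and ATP in the last step of glycolysis, and its transcripts encode both splice forms M1 and M2, which 3′ counts do not separate (chr9:59656368-59679375, plus strand). It had 1932, 2623 and 2599 CPM in BALB/c, against 5096, 2503 and 2711 CPM in C57BL/6. C57BL/6 replicate 1 lay far above the rest, and the other libraries of the strains overlapped. The mean was 2385 ± 392 CPM in BALB/c, against 3437 ± 1441 CPM in C57BL/6. The log2 difference of -0.53 ± 0.33 was the largest in size of the 10 genes and became -0.14 without C57BL/6 replicate 1. The epithelial marker sum was highest in the same library, C57BL/6 replicate 1, and lowest in BALB/c replicate 1, where Pkm was lowest. The part of epithelial RNA in the level of Pkm was not tested.

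Ldha, the lactate dehydrogenase subunit that favours lactate, resembled Tpi1 (chr7:46841475-46855627, plus strand). It had 1307, 1442 and 1299 CPM in BALB/c, against 1832, 1520 and 1839 CPM in C57BL/6. The strains did not overlap, with BALB/c replicate 2 and C57BL/6 replicate 2 nearest to each other. The means were 1349 ± 80.7 CPM in BALB/c, against 1731 ± 182 CPM in C57BL/6 libraries (SD, n = 3 each), or 0.781 times the C57BL/6 level. The log2 difference was -0.36 ± 0.21 (edgeR adjusted p = 0.954). It stayed at -0.33 without C57BL/6 replicate 1 and between -0.47 and -0.28 in all 16 alternatives.

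The 10 genes did not move as 1 block across the libraries. Over 6 libraries, which share depth and composition between genes, Gpi1, Aldoa and Pkm followed each other, with Pearson r of log2 CPM of 0.95 for Gpi1 with Aldoa, 0.96 for Gpi1 with Pkm and 0.91 for Aldoa with Pkm. Tpi1 and Ldha had r = 0.83, and so did Pgk1 and Pgam1. Pgam1 ran against Pkm (r = -0.90), and Slc2a1 against Pgk1 (r = -0.95) and Pgam1 (r = -0.92). C57BL/6 replicate 1 sat at the end of most of these relations. There Pkm, with a GC content of 57.7%, Aldoa, with 56.9%, and Gpi1, with 53.5%, lay 0.87, 0.60 and 0.56 above their means on the log2 scale. Pgk1, with 49.7%, and Pgam1, with 52.8%, lay at -1.22 and -1.60, and the median over tested genes was 51.6%. Ldha, with 51.5%, lay at 0.26. Gapdh, with 56.6%, lay at -1.75 there, but also at -2.66, -1.82 and -1.38 in BALB/c replicates 2 and 3 and C57BL/6 replicate 2. The part of GC content in these deviations was not tested.

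**Figure D5:**
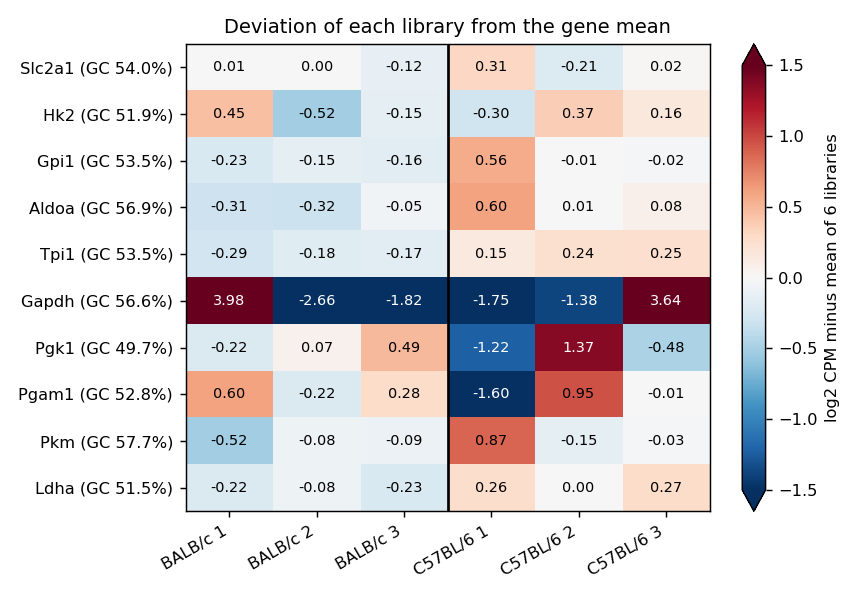
Deviation of log2 CPM in each library from the mean of the 6 libraries, for the 10 genes in pathway order with the GC content of the transcript, BALB/c left of the black line and C57BL/6 right of it; colours saturate at 1.5. C57BL/6 replicate 1 is high for Gpi1, Aldoa and Pkm and lowest for Pgk1 and Pgam1. Gapdh is low in 4 libraries, and Tpi1 varies little within each strain.

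Summed counts depended on whether Gapdh was included. The 10 genes took 0.863%, 0.698% and 0.689% of all counts in BALB/c replicates 1, 2 and 3, against 0.964%, 0.74% and 1.04% in C57BL/6 replicates 1, 2 and 3. Without Gapdh the shares were 0.607%, 0.696% and 0.685% in BALB/c and 0.96%, 0.734% and 0.832% in C57BL/6. With Gapdh the strains overlapped, and without it each BALB/c library lay below each C57BL/6 library. Gapdh was left out after its values were seen. The remaining sum includes Gpi1, Aldoa, Tpi1 and Ldha, the 4 genes without overlap, so it is not a separate result. It was highest in C57BL/6 replicate 1, where Pkm had 5096 CPM. The lactate step relative to the pyruvate step was less separated: Ldha had 67.6, 55 and 50 counts per 100 counts of Pkm in BALB/c and 36, 60.7 and 67.8 in C57BL/6. Of genes outside the lists whose mean log2 CPM was 5 or more, those most like the mean profile of the 10 were Ccl6 (r = 0.949), Trim26 (0.929), Bcl2l2 (0.905), Lsm10 (0.901) and Twist2 (0.899), over 6 libraries and 4336 genes compared. With Gapdh left out the leading genes were others, Nop56 (r = 0.975), Fam114a1 (0.965), Wipi2 (0.963), Cdc16 (0.962) and Clasrp (0.952).

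Many sites that HIF-1 binds hold the core ACGTG, the only form searched here. The promoters of 3 genes are shown because Ldha and Tpi1 had the same strain pattern while Pgk1 did not. Each runs from 250 bases before to 50 after a transcript start (RefSeq, GRCm38.p6), 5′ to 3′ on the gene's strand. Capitals mark ACGTG on either strand, thus ACGTG or CACGT, and CACGTG holds both. Ldha has another window, chr7:46846832-46847131, which holds no motif and is not shown. The windows shown are chr7:46845554-46845853 (plus) for Ldha, chr6:124814109-124814408 (minus) for Tpi1 and chrX:106186850-106187149 (plus) for Pgk1.
Ldha: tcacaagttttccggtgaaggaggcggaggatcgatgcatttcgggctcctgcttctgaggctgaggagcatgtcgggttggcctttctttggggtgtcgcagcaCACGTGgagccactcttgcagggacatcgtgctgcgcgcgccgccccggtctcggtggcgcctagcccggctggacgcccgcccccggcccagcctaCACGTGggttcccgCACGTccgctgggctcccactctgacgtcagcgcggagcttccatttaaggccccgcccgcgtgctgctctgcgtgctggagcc
Tpi1: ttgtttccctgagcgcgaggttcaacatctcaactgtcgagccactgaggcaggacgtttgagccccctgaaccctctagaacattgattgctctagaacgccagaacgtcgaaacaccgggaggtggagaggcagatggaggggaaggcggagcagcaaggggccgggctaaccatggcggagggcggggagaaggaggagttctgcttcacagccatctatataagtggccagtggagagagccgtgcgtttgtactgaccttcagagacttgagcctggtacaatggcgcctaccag
Pgk1: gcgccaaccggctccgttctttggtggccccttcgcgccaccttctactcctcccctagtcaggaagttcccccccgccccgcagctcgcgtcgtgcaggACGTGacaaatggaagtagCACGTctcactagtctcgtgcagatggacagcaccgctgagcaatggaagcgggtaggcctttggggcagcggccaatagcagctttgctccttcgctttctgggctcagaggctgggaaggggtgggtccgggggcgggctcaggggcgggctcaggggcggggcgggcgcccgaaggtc

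The Ldha window shown held 5 motif starts, among them those of 2 CACGTG, the Pgk1 window held 2, and the Tpi1 window held 0. In all, 9 of the 14 promoter windows of the set held the motif, 2 of them overlapping Aldoa windows with the same site. By gene, 8 of the 10 held it in at least 1 window, the exceptions being Gpi1 and Tpi1. Over all 32851 promoter windows, 19.6% held it, and 7.15% held CACGTG. These are shares of windows, and the share of genes was not computed. Of the 4 genes without overlap between the strains, a pattern of 6.26% of all tested genes, Aldoa and Ldha had the motif in a window. Gpi1 and Tpi1 had none. None of the 4 passed the strain test, and the part of HIF-1 in their levels was not tested. A match describes the letters only, and binding was not measured.

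Genes around the pathway gave no call either. A further 9 lists, of other glycolytic enzymes, transporters, regulators and neighbouring pathways, named 145 genes, of which 126 were in the table and 103 were tested. Of the 103, edgeR called 0, with 54 higher and 49 lower in BALB/c and a median log2 difference of 0.01, that of all genes. Unadjusted p was under 0.05 for 7 of the 103, against 3.86% of all tested genes. DESeq2 called 1, the enolase Eno1b, and 71 of all 8752 genes. The strains did not overlap in 6 higher and 6 lower genes of the 103, which is near the 5.15% and 6.26% of all tested genes.

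Lactate made by Ldha leaves the cell through carriers such as Slc16a3, the exporter MCT4. Slc16a3 had 232, 82.2 and 161 CPM in BALB/c, against 477, 397 and 371 CPM in C57BL/6. Every BALB/c library lay well below every C57BL/6 library, although the BALB/c values differed among themselves. A log2 difference of -1.39 ± 0.39 (unadjusted p = 0.00803, edgeR adjusted p = 0.763) resulted. It ranged from -1.86 to -1.08 over 16 alternatives and passed in 0 of them. Bsg, the chaperone that brings this transporter to the membrane, had 839 ± 105 CPM in BALB/c, against 1394 ± 708 CPM in C57BL/6 libraries (SD, n = 3 each), and its strains overlapped.

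Of 12 other glycolytic enzymes tested, 6 were higher and 6 lower in BALB/c. Hk1, the housekeeping hexokinase, had a log2 difference of -0.64 ± 0.36. Eno1, the main enolase, had -0.07 ± 0.34, and 75.2% of its 3′ words are shared with other genes. Pfkl, a subunit of phosphofructokinase, which commits the sugar to glycolysis, was picked after its values were seen. It had 77.8, 85.4 and 108 CPM in BALB/c, against 280.0, 145 and 171 CPM in C57BL/6, with no overlap. Its log2 difference was -1.13 ± 0.31 (edgeR adjusted p = 0.749), and it passed in 0 of 16 alternatives.

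Regulators and targets showed no common direction. Among 11 regulators of glycolytic flux 8 were higher, with a median of 0.13, and Txnip, which restrains glucose uptake, had -0.14 ± 0.25 and Mlx, a partner of glucose-sensing factors, 0.12 ± 0.31. Of 26 genes of the HIF pathway and its other targets 9 were higher and 17 lower, with a median of -0.22. Vegfa, the angiogenic growth factor, had -0.06 ± 0.49, and Ddit4, an inhibitor of mTOR signalling, -0.26 ± 0.55. Of 18 genes of pyruvate oxidation and the citrate cycle 15 were higher in BALB/c, with a median of 0.29, and none passed. Over all tested genes 48.9% were lower in BALB/c, with a median of 0.01. Mdh2, mitochondrial malate dehydrogenase, had 0.22 ± 0.24 and Sdhb, a subunit of succinate dehydrogenase, -0.16 ± 0.25. In that list the strains did not overlap in 2 genes, Pdhb and Suclg1, both higher in BALB/c. Over all tested genes 5.15% had this pattern.

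The side branches were as varied. Of 7 genes of the pentose phosphate pathway 6 were lower, with a median of -0.51, against 48.9% lower over all tested genes. None of the 7 passed. Taldo1, transaldolase, had a log2 difference of -0.52 ± 0.33 and Pgd, which makes NADPH, -0.51 ± 0.40. Both were highest in C57BL/6 replicate 1, at 912 and 736 CPM, where the epithelial marker sum was also the highest, and this was not tested. Of 8 genes of the NADH shuttles 5 were higher. Got2, a mitochondrial aminotransferase, had -0.32 ± 0.21 and Mdh1, the cytosolic malate dehydrogenase, 0.48 ± 0.35. Of 11 genes of glycogen and hexosamine synthesis 6 were higher, with 0.08 ± 0.44 for Gfpt2 and -0.66 ± 0.35 for the glycogen synthase Gys1. In the list of gluconeogenesis 3 genes were tested, 1 higher and 2 lower, with -0.49 ± 0.34 for G6pc3 and -0.26 ± 0.42 for Pcx. Of 13 proliferation genes 10 were higher, with 0.13 ± 0.28 for Top2a and -0.48 ± 0.37 for Plk1, and their summed level was 997 to 1172 CPM in BALB/c, against 828 to 1076 CPM in C57BL/6.

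Markers of other cell types were read beside these genes. Skeletal muscle, rich in glycolytic enzymes, had 4 of 5 markers in the table, Ckm not among them, and their sum was 172 to 301 CPM in BALB/c, against 696 to 1630 CPM in C57BL/6. Most of it was Acta1, skeletal actin, with 104, 234 and 223 CPM in BALB/c, against 1477, 643 and 897 CPM in C57BL/6 (log2 difference -2.42 ± 0.44, edgeR adjusted p = 0.187). Mylpf, a muscle light chain, was at 39.2 ± 3.86 CPM in BALB/c, against 59.4 ± 39.7 CPM in C57BL/6. Macrophage markers, with 10 of 10 in the table, summed to 618 to 896 CPM in BALB/c, against 841 to 1639 CPM in C57BL/6, and all 8 tested had negative differences, with a median of -0.91. Of these, Cd68, Fcer1g, C1qa and C1qb were lower in BALB/c without overlap, a pattern of 6.26% of all tested genes. Lyz2, another of the 8, overlapped, with 549, 337 and 527 CPM in BALB/c, against 657, 441 and 710.0 CPM in C57BL/6. Its log2 difference was -0.36 ± 0.30. The macrophage sums overlapped as well. An unadjusted edgeR p under 0.05 was found for 4 of the 8, against 3.86% of all tested genes. None of the 8 passed the adjusted threshold. Smooth muscle and pericyte markers, with 7 of 7 in the table, summed to 327 to 516 CPM in BALB/c, against 681 to 829 CPM in C57BL/6. Endothelial markers stayed between 39.7 and 81.9 CPM in all libraries, and of 7 adipocyte markers 2 were in the table, Adipoq and Plin1 not among them. None of 5 red blood cell and 5 lymphocyte markers was in it. Gpi1, Aldoa, Tpi1, Ldha and the 4 macrophage markers without overlap were lower in every BALB/c library than in every C57BL/6 library. So were the skeletal muscle sum and the smooth muscle and pericyte sum, but each list held only 1 such gene. Of 4 skeletal muscle markers tested this was Acta1, and of 6 smooth muscle and pericyte markers tested it was Cnn1. Mylpf overlapped, with 27.8 CPM in C57BL/6 replicate 2. So did Cspg4 of the smooth muscle and pericyte list, with a log2 difference of -0.15 ± 0.37. The part of other cell types in the differences of the glycolytic genes was not tested.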

How the data were processed

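The table that the authors deposited holds unnormalised counts by gene symbol. Its 6 columns carry the library names that the labels give, which identified the samples. Reads came from 3′ libraries of polyadenylated RNA, per the labels' protocols, and bcl2fastq, STAR 2.4.2a, HTSeq and mm10 were used, per the submitters' processing notes. The sources used here state neither the read length, nor the use of strand, nor the handling of reads with several matches. For each of the 12023 genes the highest library holds 6 counts or more.

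The deposited counts were tested in R 4.3.3 with edgeR 4.0.16: filterByExpr by strain (8752 genes kept), TMM factors of 0.866 to 1.06, a robust quasi-likelihood fit with strain as the only term, a two-sided test, Benjamini-Hochberg adjustment over all tested genes and a threshold of 0.05. Replicates had a biological coefficient of variation of 41.1%. Each strain had 3 biological replicates. CPM are counts per TMM-scaled total, and log2 CPM carry a prior count of 2. Total counts of 1035485 to 4665896 set the counting error, and 95% exact intervals and the floor of 3 counts cover that error only. Genes were placed on GRCm38 with GENCODE vM21, which located 11973 genes (99.6%). Copies were searched with BLAST+ 2.17.0 over whole transcripts, 1 per gene, at 95% identity or more over 60 nt or more, and shared words of 50 nt over the last 500 nt. The test was checked on simulated data.

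The 10 genes and all lists were chosen with earlier results of these data known. From each list except those of cell type markers, the text names the genes past the threshold (up to 2 per direction). With none past it, the pair highest in mean log2 CPM is named. Of the marker lists only some of these pairs are named. The text also names the 5 genes outside the lists most like the mean profile of the 10 genes. Pfkl and Eno1b were added after their values were seen. Cd68, Fcer1g, C1qb, Pdhb and Suclg1 were named because their strains did not overlap. The 16 alternatives covered other scalings (upper quartile, library totals), DESeq2 1.42.0, limma 3.58.1 with library quality weights, other filters, a replicate block, copies summed, a GC and length offset, each library left out and 1 pair left out. The last was chosen after seeing the data.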

Additional observations from a re-analysis of the deposited data

How the results depend on the processing

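No glycolytic gene was called in any of the 16 alternatives that gave it an adjusted p. DESeq2 gave none for Gapdh, and Pgam1 was not tested with a mean of at least 50 counts. Gpi1, Aldoa, Tpi1, Pkm and Ldha kept a negative log2 difference in all 16, but with the GC and length offset Pkm was -0.25 and Aldoa -0.30, and with library quality weights Pkm was -0.16, Gpi1 -0.17 and Aldoa -0.26. The number of genes called over the whole table, 18, was 11 with library totals alone, 71 with DESeq2, 57 with limma's library quality weights, and 0 to 25 when each library was left out. DESeq2 alone called 1 gene of the wider lists. The sign of Gapdh turned to -3.38 with quality weights, and leaving out single libraries moved it from -4.36 to 3.98, with -0.29 and -0.27 without C57BL/6 replicates 1 and 2. Pgk1 turned to 0.46 with quality weights and 0.96 without C57BL/6 replicate 2, with a range of -0.56 to 0.96. Pgam1 was -0.08 without BALB/c replicate 1 and -0.28 without C57BL/6 replicate 1 (range -0.28 to 0.82), Hk2 0.08 and 0.03 without BALB/c or C57BL/6 replicate 2 (range -0.44 to 0.08), and Slc2a1 0.04 without C57BL/6 replicate 1 (range -0.19 to 0.04). Without BALB/c replicate 1 and C57BL/6 replicate 3, the high libraries of Gapdh, a pair chosen after seeing the data, 0 genes were called, 195 had an unadjusted p under 0.05, Gapdh was -0.66 and Pgam1 -0.16. The causes were not tested.

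Same-numbered libraries did not deviate together (r = -0.419, -0.397 and -0.077), and the labels name no shared litter or day, so the numbers were not taken to pair samples. The highest r across the strains was 0.581, for BALB/c replicate 1 with C57BL/6 replicate 2. Deviations were centred within each strain, so these r depend on each other. With a replicate block 0 genes were called, 158 had an unadjusted p under 0.05, and Gapdh was -1.06 and Pgk1 0.25. Genes with few counts, such as Pgam1 with 7 in C57BL/6 replicate 1, are limited by depth.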

Other observations

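Eno1b, an enolase gene that arose by retrotransposition of Eno1, was noticed after its values were seen. It was counted 30, 28 and 24 times in BALB/c replicates 1, 2 and 3, and 2, 1 and 1 times in C57BL/6 replicates 1, 2 and 3. Its share of the counts of Eno1 and Eno1b together was 3.9%, 1.74% and 3.22% in BALB/c and 0.232%, 0.0941% and 0.0571% in C57BL/6, so the strains did not overlap. The log2 difference was 4.68 ± 0.79 (edgeR adjusted p = 0.131), and 4.77 ± 0.99 in DESeq2 (adjusted p = 0.00042). It passed in that 1 of 15 alternatives. Of its 3′ words of 50 nt, 82.3% also occur in another annotated gene, and 75.2% of those of Eno1, so how far the counts of each come from the other was not tested. The sum of both genes is almost entirely Eno1, whose log2 difference was -0.07 ± 0.34.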
